A study of Mus musculus with 3 samples.

Results

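The 10 genes described here encode membrane transporters that carry amino acids and small peptides across the lining of the small intestine. They are Slc15a1, Slc6a19, Slc7a9, Slc3a1, Slc7a8, Slc1a1, Slc6a14, Slc7a15, Slc36a1 and Slc6a20a, chosen by name, and all 10 were among the 13891 genes measured. The data are single-cell RNA profiles of the small intestine of male mice of the outbred ICR strain, made with the 10x Genomics droplet system (3′ ends), which counts RNA molecules by their unique molecular identifiers (UMIs). The mice were 3 weeks old at the start. The group AOS 0 received vehicle only, the group B + A 0 received 1 injection of busulfan at 40 mg/kg and then vehicle, and the group B + A 10 received the same injection and then AOS at 10 mg/kg, with daily gavage for 2 weeks. AOS stands for alginate oligosaccharides, and busulfan is a chemotherapy drug that alkylates DNA. A library pooled the cells of 6 mice of a group, and each group had 1, so the 3 libraries have no replicates, differences between groups could not be tested, and every interval given is at 95% and covers counting error alone. Values for the libraries always stand in the order AOS 0, then B + A 0, then B + A 10. The mice of a group, its treatment and its library cannot be told apart in this design.

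Dietary protein is cut by pancreatic and brush border peptidases into free amino acids and short peptides, which enterocytes take up from the gut lumen through apical transporters. Short peptides enter with protons, while free amino acids enter through sodium-driven or proton-driven carriers and through exchangers that each accept a set of neutral, basic or acidic amino acids, and basolateral exchangers pass amino acids on to the blood. Enterocytes arise from stem cells in the crypts, mature as they move up the villi and differ in their gene expression between duodenum, jejunum and ileum.

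The promoters of Slc15a1, Slc7a9 and Slc3a1 are shown because Slc15a1 had the largest ratio between B + A 10 and B + A 0 among the 9 members that could be compared, and because Slc7a9 and Slc3a1 encode both chains of 1 transporter and ran closely together over the cell classes. The sequences are from RefSeq (GRCm38.p6), from 250 bases before to 50 after a start listed for the gene, 5′ to 3′ on the strand of the gene. RefSeq lists 2 promoters for Slc7a9 and for Slc7a15, of which 1 each was used. The Slc7a9 window surrounds a start 9 bases from the principal start in the annotation used for the coordinates. That start lies inside the span given for the gene below, so the window is not the only promoter of Slc7a9. Capitals mark matches on either strand to 5 motifs. These were a core of the HNF1 site (GTTAAT), a site of HNF4A (CAAAGTCC), a site of CDX2 (TTTATGG), a site of the GATA factors spelled AGATAA, and the box for the start of transcription spelled TATAAA.

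Slc15a1, chr14:121505205-121505504, minus strand: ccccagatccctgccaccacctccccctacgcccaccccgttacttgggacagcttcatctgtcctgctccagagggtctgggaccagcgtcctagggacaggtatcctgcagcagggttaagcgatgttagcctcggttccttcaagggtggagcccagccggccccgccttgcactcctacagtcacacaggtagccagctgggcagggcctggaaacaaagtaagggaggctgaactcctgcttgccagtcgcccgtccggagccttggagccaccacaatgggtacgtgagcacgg

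Slc7a9, chr7:35448929-35449228, plus strand: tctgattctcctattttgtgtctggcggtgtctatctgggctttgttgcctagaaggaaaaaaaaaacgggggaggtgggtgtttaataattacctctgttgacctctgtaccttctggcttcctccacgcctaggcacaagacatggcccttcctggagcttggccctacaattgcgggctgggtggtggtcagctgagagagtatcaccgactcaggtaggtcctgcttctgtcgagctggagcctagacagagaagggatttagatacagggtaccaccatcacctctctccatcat

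Slc3a1, chr17:85028097-85028396, plus strand: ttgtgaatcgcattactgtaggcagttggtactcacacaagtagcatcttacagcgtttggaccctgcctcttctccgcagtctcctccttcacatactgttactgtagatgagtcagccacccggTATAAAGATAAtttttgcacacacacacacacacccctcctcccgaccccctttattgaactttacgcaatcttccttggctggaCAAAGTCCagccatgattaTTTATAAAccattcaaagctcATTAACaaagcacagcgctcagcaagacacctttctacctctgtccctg

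Slc3a1 held an HNF1 core on the minus strand that began at base 2 after the start, an HNF4A match at -39, a GATA match at -119 that overlaps a TATA box match at -124, and TATA box matches on both strands at -18 and -20 that overlap each other. Slc15a1 and Slc7a9 held none of the 5 letter strings in this window. Of 13488 promoters of measured genes, 4.92% held the HNF1 core, 1.49% the HNF4A motif, 1.85% the CDX2 motif, 7.04% the GATA motif and 7.74% the TATA box. RefSeq places the start of Slc6a19 8144 bases from the principal start in the annotation used for the coordinates, so its window describes another start. Among the other members, the HNF1 core was present in the promoters of Slc36a1 and Slc6a20a. The GC content of the 10 promoters ranged from 46.3% in Slc3a1 to 70.3% in Slc1a1, beside a median of 60% over all promoters. These matches describe letters and are no evidence of binding.

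The 3 libraries held 4106, 3195 and 5352 cells, with a median of 7371, 6407 and 3505 UMIs per cell. Cells were clustered without the transporter, partner, peptidase and stress genes described here, so those genes had no part in making the clusters, and clusters were named from marker genes. The 6 classes compared, each 1 cluster, were stem-like cells (925 cells) and early (695), mid villus (760), proximal (1027), mature villus (900) and ileal (461) enterocyte-like cells. All 8 stem, 8 mature and 6 ileal markers and 6 of 7 early markers were highest in the class they name, but only 3 of 7 mid and 2 of 7 proximal markers were. The proximal markers Dnase1, Leap2 and Lct were highest in the mature class, which had 2 mature and 2 proximal markers among its 10 leading genes, so these names describe neighbouring clusters and not dissected gut segments. A duodenal iron and calcium absorbing class (331 cells) and a pair of unnamed enterocyte clusters, led by Fam151a and Plb1 (665 cells) and by Fabp6 and Ddah1 (586 cells), are given where they add to the picture. Unnamed clusters together held 15.2%, 14.2% and 12.7% of the cells of the 3 libraries. Pairs of libraries shared 17 to 34 cell barcodes, of which 5.88% to 8.82% were in the same class, beside 10.4% to 10.7% of random pairs of cells.

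The level of a gene is the number of its UMIs per 10000 UMIs, summed over the cells of a class. Levels are compared for the same gene between classes and libraries, and not between genes. Free RNA gives droplets UMIs of genes that their cells do not use, so most members are read beside Paneth-like cells (median 17045 UMIs) and T cell-like cells (median 4403 UMIs), classes that should lack most absorptive transporters. The genes of the other lists are given mostly without this comparison. The T cell-like clusters held more enterocyte RNA than the Paneth cluster, with 6.19 against 0.827 UMIs per 10000 of the brush border peptidase gene Anpep, so a level between those of both classes is not separated from background.

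Slc15a1 (chr14:121459621-121505252, GRCm38) encodes the peptide carrier of the brush border, PEPT1. Over the 3 libraries its level was 0.116 (0.0882 to 0.150) in stem-like, 0.146 (0.113 to 0.186) in early, 0.647 (0.574 to 0.725) in mid, 3.12 (2.96 to 3.29) in proximal, 6.01 (5.75 to 6.27) in mature and 2.25 (2.08 to 2.43) in ileal cells. Paneth-like cells had 0.142 (0.118 to 0.169) and T cell-like cells 0.744 (0.630 to 0.873). Without AOS 0 the early and mid levels were 0.232 and 0.985, and without B + A 10 they were 0.0818 and 0.407. Over the 3 libraries stem-like, early and mid cells did not exceed both background classes, and the gene stood out in proximal, mature and ileal cells. After thinning of every cell to 1000 UMIs, 42.9% of mature, 22.8% of ileal and 1.62% of stem-like cells held a Slc15a1 UMI, beside 1.60% of Paneth-like and 6.53% of T cell-like cells. Before thinning the shares were 84.0%, 60.3%, 5.84%, 21.97% and 22.2%, at medians of 3662.5, 5133, 4869, 17045 and 4403 UMIs. Mature cells were the highest class in each library.

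Slc6a19 (chr13:73679745-73704865) encodes the main sodium-driven carrier of neutral amino acids of the brush border and is also known as B0AT1. Its level was 0.190 (0.154 to 0.232) in stem-like, 0.263 (0.217 to 0.315) in early, 0.618 (0.547 to 0.695) in mid, 2.42 (2.28 to 2.56) in proximal, 5.57 (5.32 to 5.83) in mature and 3.03 (2.83 to 3.24) in ileal cells. Paneth-like cells had 0.204 and T cell-like cells 0.838, so this gene too exceeded both from the proximal class on. Its order differed from that of Slc15a1 in 1 place, since ileal cells lay above proximal cells. That gap was small, with log2 ratios of 0.20 (0.00 to 0.41), 0.42 (0.17 to 0.66) and 0.50 (0.26 to 0.74) in the 3 libraries. Over the 6 classes and 3 libraries (18 points that share libraries) the log2 levels of Slc6a19 and Slc15a1 had a Pearson correlation of 0.963, given as a description.

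Slc7a9 (chr7:35448796-35466036) and Slc3a1 (chr17:85028376-85064236) encode the transporting light chain and the heavy chain of the exchanger that takes up cystine and basic amino acids. The level of Slc7a9 was 0.196 (0.159 to 0.239) in stem-like, 1.27 (1.17 to 1.38) in early, 2.65 (2.50 to 2.81) in mid, 3.29 (3.13 to 3.46) in proximal, 3.65 (3.45 to 3.86) in mature and 5.39 (5.13 to 5.67) in ileal cells, beside 0.187 in Paneth-like and 1.16 in T cell-like cells. Early cells exceeded stem-like cells 6.49-fold, 6.57-fold and 6.70-fold in the 3 libraries. Ileal cells had 5.24 (4.86 to 5.64), 5.37 (4.89 to 5.88) and 5.76 (5.18 to 6.39) in these libraries and mature cells 3.43 (3.13 to 3.75), 3.91 (3.52 to 4.33) and 3.71 (3.35 to 4.09). Ileal cells were thus the highest class in each library, with no overlap between the libraries of both classes.

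The level of Slc3a1 was 0.1001 (0.0743 to 0.132) in stem-like, 0.308 (0.259 to 0.364) in early, 0.624 (0.554 to 0.702) in mid, 0.910 (0.824 to 1.001) in proximal, 1.44 (1.32 to 1.57) in mature and 1.71 (1.56 to 1.87) in ileal cells, the same order as Slc7a9. Paneth-like cells had 0.0687 and T cell-like cells 0.340. The mature and ileal intervals overlapped, and the highest class was ileal in AOS 0 and B + A 0 but mature in B + A 10. Per 100 UMIs of Slc7a9 there were 24.2 (19.9 to 29.2) UMIs of Slc3a1 in early, 23.5 (20.6 to 26.8) in mid, 27.6 (24.7 to 30.8) in proximal, 39.5 (35.5 to 43.9) in mature and 31.8 (28.6 to 35.2) in ileal cells. By library mature cells had 44.1, 29.9 and 42.9 and ileal cells 35.0, 30.1 and 27.4, so mature cells were not the higher in B + A 0. Over the 18 points both genes had a correlation of 0.953.

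Slc7a8 (chr14:54722209-54781946) encodes the light chain of a basolateral exchanger of neutral amino acids, LAT2. Its level was 0.172 (0.138 to 0.213) in stem-like, 0.782 (0.702 to 0.869) in early, 1.75 (1.63 to 1.88) in mid, 1.88 (1.76 to 2.01) in proximal, 2.03 (1.88 to 2.18) in mature and 0.362 (0.296 to 0.439) in ileal cells, beside 0.101 in Paneth-like and 0.512 in T cell-like cells. Mid, proximal and mature cells formed a plateau whose neighbours had overlapping intervals. Ileal cells had 0.256, 0.434 and 0.499 in the 3 libraries and mature cells 1.67, 1.95 and 2.55, so the level was 6.53-fold, 4.51-fold and 5.12-fold lower in ileal cells and the libraries did not overlap. The duodenal class stood between them at 0.914 (0.762 to 1.09).

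Slc36a1 (chr11:55204350-55236330) encodes a proton-driven carrier of small neutral amino acids such as glycine and proline, PAT1. Its level was 0.0721 (0.0505 to 0.0998) in stem-like, 0.0922 (0.0661 to 0.125) in early, 0.429 (0.371 to 0.494) in mid, 1.11 (1.01 to 1.21) in proximal, 1.30 (1.19 to 1.43) in mature and 0.162 (0.118 to 0.216) in ileal cells, beside 0.0754 in Paneth-like and 0.256 in T cell-like cells. Ileal cells had 0.102, 0.234 and 0.193 in the 3 libraries against 1.25, 1.23 and 1.43 in mature cells, which was 12.2-fold, 5.26-fold and 7.43-fold lower. The duodenal class, at 0.396 (0.298 to 0.515), was also 2.68-fold, 2.19-fold and 3.58-fold below proximal cells. Slc36a1 was the 1 member of 7 tested that was lower there (0.671% of all genes), by the rule given with the counts.

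Slc7a15 (chr12:8528483-8599066) belongs to the same family of light chains as Slc7a8 and Slc7a9. Its level was 1.55 (1.42 to 1.69) in mature, 0.4004 (0.345 to 0.463) in proximal and 0.281 (0.223 to 0.350) in ileal cells. Mid, early and stem-like cells had 0.0400, 0.0562 and 0.0320, within or below the range of Paneth-like (0.0507) and T cell-like cells (0.138). Mature cells held 1.64, 1.31 and 1.65 in the 3 libraries and proximal cells 0.422, 0.275 and 0.474, a difference of 3.90-fold, 4.75-fold and 3.48-fold. Of 7 members tested, Slc7a15 was the 1 that was past 2-fold between these neighbouring classes in each library (1.13% of all genes were higher by this rule).

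Slc1a1 (chr19:28835049-28913960) encodes the carrier of glutamate and aspartate, EAAT3, and did not follow the others along the villus. Its level was 0.142 (0.111 to 0.179) in stem-like, 0.539 (0.473 to 0.612) in early, 0.327 (0.276 to 0.384) in mid, 0.0631 (0.0423 to 0.0906) in proximal, 0.0875 (0.0591 to 0.125) in mature and 1.06 (0.946 to 1.19) in ileal cells, beside 0.0473 in Paneth-like and 0.128 in T cell-like cells. Ileal cells had 1.07 (0.901 to 1.25), 1.11 (0.901 to 1.36) and 0.981 (0.751 to 1.26) in the 3 libraries and mature cells 0.0720, 0.115 and 0.0832, so the level was 14.8-fold, 9.69-fold and 11.8-fold higher in ileal cells. The gene was therefore low in proximal and mature cells and highest in ileal cells in all 3 libraries.

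The cluster led by Fabp6 and Ddah1, which scored highest for early markers but had 3 ileal markers among its 10 leading genes, resembled ileal cells in some members only. It held Slc1a1 at 0.966 (0.876 to 1.06), close to the ileal level of 1.06. Slc7a9 was at 2.75 (2.60 to 2.91), below the ileal level of 5.39. Slc15a1 was at 0.213 (0.172 to 0.261) and Slc6a19 at 0.160 (0.125 to 0.202). The ileal class exceeded this cluster 13.1-fold, 8.13-fold and 10.7-fold for Slc15a1 and 22.5-fold, 19.7-fold and 14.4-fold for Slc6a19 in the 3 libraries, and of 7 members tested without Slc6a14 these 2 and Slc3a1 were past 2-fold in each library (beside 2.11% of all genes).

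Slc6a14 (chrX:21714896-21742355) encodes a carrier of neutral and basic amino acids driven by sodium and chloride. It had 399 UMIs in 182 cells, of which 250 were in ileal cells. The ileal level was 0.475 (0.367 to 0.606), 1.34 (1.10 to 1.61) and 1.14 (0.892 to 1.44) in the 3 libraries, and mature cells had 0, 3 and 1 UMIs in the same order. In B + A 0 the log2 ratio of ileal over mature cells was 5.41 (3.83 to 7.71) and in B + A 10 it was 6.95 (4.42 to 12.27), on these few counts. In AOS 0, with 3 counts in that library taken as the floor for mature cells, the ileal level was at least 21.99-fold higher. Of 461 ileal cells 81 held a UMI, and the highest cell held 17.

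Slc6a20a (chr9:123634770-123678885), a carrier of proline and related imino acids, had 15 UMIs in all, with 9, 6 and 0 in the 3 libraries, and its differences were not detectable at this depth.

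**Figure D1:**
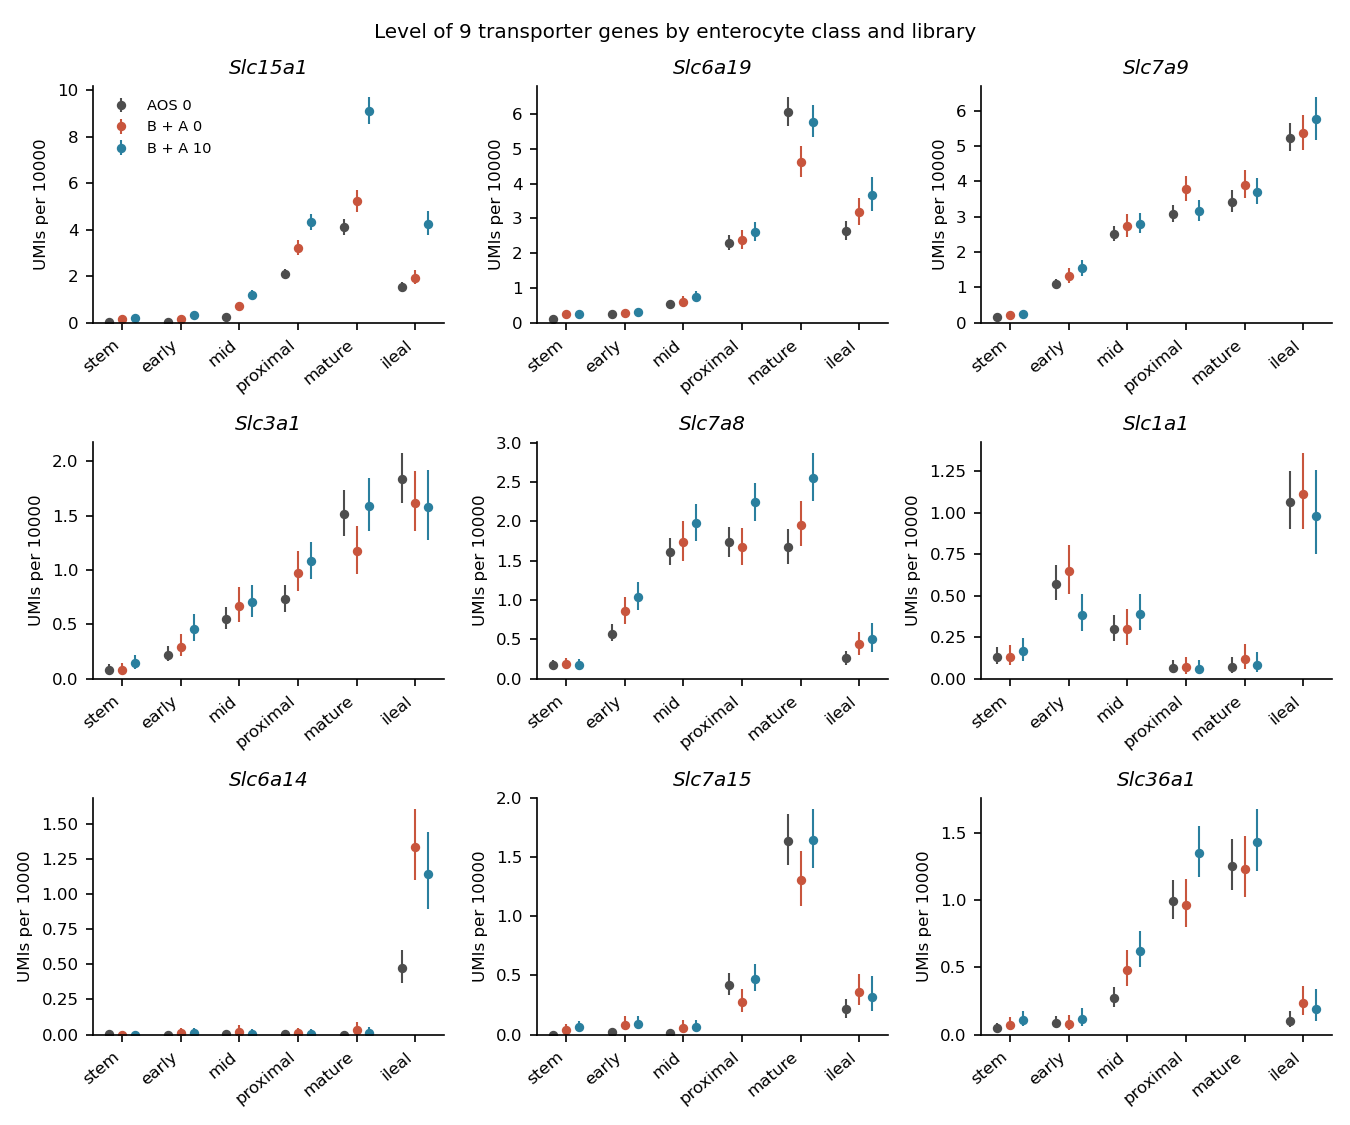
Level of 9 of the 10 genes (vertical axis, UMIs per 10000 UMIs, each panel with its own scale) in 6 enterocyte classes (horizontal axis), with 1 point for each library and bars for the 95% Poisson interval, which covers counting error. Summed over the libraries, Slc15a1, Slc6a19, Slc7a8, Slc7a15 and Slc36a1 are highest in mature cells and Slc7a9, Slc3a1, Slc1a1 and Slc6a14 in ileal cells.

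Counted over the members, the course along the villus was shared only in part. Of 9 members without Slc6a20a, 5 were highest in mature and 4 in ileal cells. A gene was called between classes where its level differed by more than 2-fold in the same direction in each of the 3 libraries, among genes with at least 100 UMIs in both classes together. A gene that is low in 1 class passes this minimum through the other, so these counts are a description. Slc6a14 passed it through ileal cells alone and is left out of the counts, but members that stay in them can also have passed it through 1 class. From stem-like to mature cells 7 of 8 members tested were called higher, beside 19.5% of all genes, with Slc15a1 102-fold, 34.3-fold and 51.1-fold and Slc7a8 10.03-fold, 10.9-fold and 14.8-fold higher in the 3 libraries. The folds of Slc15a1 rest on 8, 22 and 28 UMIs in stem-like cells, where its level over the 3 libraries did not exceed background. Slc1a1 was the member not called. Each of the 7 called had fewer than 100 UMIs in stem-like cells and passed the minimum through mature cells.

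The steps between neighbouring classes called different members. From stem-like to early cells Slc7a9, Slc3a1, Slc7a8 and Slc1a1 were called higher, 4 of 6 tested (6.75% of all genes), and from early to mid cells Slc15a1, Slc6a19 and Slc36a1, 3 of 7 (2.66%). From mid to proximal cells Slc15a1, Slc6a19, Slc7a15 and Slc36a1 were called higher, 4 of 8 (2.36%), and Slc1a1 lower (2.8%). The exchanger chains and the glutamate carrier were thus called at the first step. Each of these 4 members had fewer than 100 UMIs in stem-like cells and passed the minimum through early cells alone. From early to mid cells Slc15a1 and Slc36a1 passed it through mid cells alone. From mid to proximal cells Slc7a15 and Slc1a1 passed it through 1 class alone, so the calls at these steps are a description. The peptide carrier and the main neutral carrier were tested at the first step but called only at the later steps. Their mid levels, 0.647 for Slc15a1 and 0.618 for Slc6a19, did not exceed the T cell-like levels of 0.744 and 0.838. The call from early to mid cells therefore does not place their start. The proton-driven carrier Slc36a1 had too few UMIs to be tested at the first step, so its calls at the later steps do not place its start. Of the early levels, those of Slc7a8 and Slc1a1 exceeded both background classes, that of Slc7a9 overlapped the T cell-like level of 1.16 (1.01 to 1.32), and that of Slc3a1 did not exceed the T cell-like level. The early class had 3.72 (1.59 to 7.46), 11.5 (6.62 to 18.7) and 20.0 (13.8 to 28.3) UMIs of Slc15a1 per 100 of Slc7a9 in the 3 libraries, beside 60.3 (40.5 to 88.8), 33.3 (20.9 to 51.7) and 101 (73.1 to 140.3) in T cell-like cells. Whether the steps of these genes differ was not tested. Among cycling crypt cells, the cluster led by Cdc20 and Ube2c held Slc7a9 at 0.654 (0.593 to 0.718), Slc7a8 at 0.658 (0.598 to 0.723) and Slc1a1 at 0.416 (0.368 to 0.468), beside 0.233 (0.208 to 0.261), 0.262 (0.235 to 0.292) and 0.214 (0.190 to 0.241) in the cluster led by Hist1h2ao and Top2a. By library Slc15a1 had 0.0180 (0.00662 to 0.0392), 0.0762 (0.0394 to 0.133) and 0.201 (0.139 to 0.281) in the first of these clusters and 0.0199 (0.00996 to 0.0357), 0.108 (0.0778 to 0.146) and 0.175 (0.134 to 0.225) in the other, and their intervals overlapped in each library.

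Between ileal and mature cells 5 of 8 members were called. Slc1a1 was higher in ileal cells (2.5% of all genes tested) and Slc15a1, Slc7a8, Slc7a15 and Slc36a1 lower (5.58%). Of these, Slc1a1 passed the minimum of UMIs through ileal cells alone, and Slc7a15 and Slc36a1 through mature cells alone, so their calls are a description. Slc15a1 was 2.68-fold, 2.70-fold and 2.14-fold and Slc7a15 7.75-fold, 3.59-fold and 5.12-fold lower in the 3 libraries. Against proximal cells, ileal cells again had Slc1a1 higher (2.69%) and Slc7a8 and Slc36a1 lower (6.49%), while Slc15a1 and Slc7a15 were not called. Slc6a19 had log2 ratios of -1.200, -0.54 and -0.65 for ileal over mature cells and was not called.

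**Figure D2:**
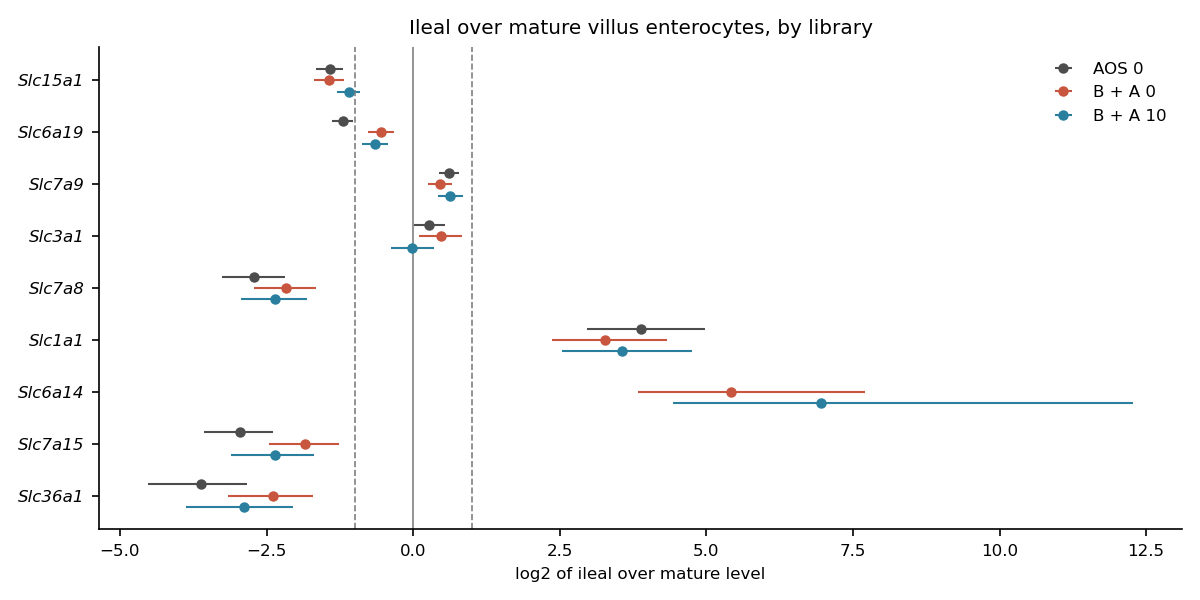
Log2 ratio of the ileal over the mature level (horizontal axis) for 9 genes (rows), with 1 point for each library and bars for the 95% interval from counting. Dashed lines mark 2-fold. Slc1a1 lies to the right of the lines in all 3 libraries and Slc6a14 in the 2 drawn (it had 0 UMIs in mature cells of AOS 0), and Slc15a1, Slc7a8, Slc7a15 and Slc36a1 lie to the left in all 3.

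The groups of mice were compared within classes, so that a change in the share of a class does not enter. Villus enterocytes were taken as the mid, duodenal, proximal, mature and ileal classes with equal weight, and a ratio past 1.5-fold was called among genes with at least 100 UMIs over both libraries. The villus level of Slc15a1 was 1.962, 2.60 and 4.41 in the 3 libraries. The log2 ratio was 0.41 (0.28 to 0.53) for B + A 0 over AOS 0, 0.76 (0.65 to 0.87) for B + A 10 over B + A 0 and 1.17 (1.06 to 1.28) for B + A 10 over AOS 0, or 1.33-fold, 1.69-fold and 2.25-fold. Slc15a1 was the 1 member of 9 called in B + A 10 over B + A 0, where 2.27% of all genes were called higher and 1.15% lower.

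Slc15a1 was lowest in AOS 0 and highest in B + A 10 in each of the 5 classes. Mature cells had 4.12 (3.79 to 4.47), 5.23 (4.78 to 5.70) and 9.12 (8.56 to 9.71), and proximal cells 2.10 (1.90 to 2.32), 3.22 (2.91 to 3.56) and 4.33 (4.002 to 4.68). Ileal cells had 1.53 (1.33 to 1.76), 1.93 (1.65 to 2.25) and 4.26 (3.77 to 4.81), and mid cells 0.240 (0.177 to 0.317), 0.722 (0.571 to 0.902) and 1.19 (1.02 to 1.39). The duodenal class had 1.81 (1.43 to 2.26), 1.91 (1.52 to 2.37) and 3.14 (2.68 to 3.65), and there as in ileal cells the intervals of AOS 0 and B + A 0 overlapped. B + A 10 was above B + A 0 1.65-fold in mid, 1.65-fold in duodenal, 1.34-fold in proximal, 1.75-fold in mature and 2.204-fold in ileal cells, so the proximal class alone of the 5 was under 1.5-fold. For B + A 0 over AOS 0 the ratio was 3.01-fold in mid, 1.05-fold in duodenal and 1.53-fold in proximal cells. The mid level of AOS 0 was below the T cell-like level of that library, given below. In mature and ileal cells it was 1.27-fold and 1.26-fold. In mid cells 2.13% of all genes were past 1.5-fold higher in B + A 0 over AOS 0. For proximal cells this share is not given, so the ratio there is a description. In B + A 10 over B + A 0 1.48% of all genes in mid, 3.09% in duodenal, 2.27% in proximal, 4.46% in mature and 3.21% in ileal cells were past 1.5-fold higher. After thinning, 30.7% (25.4 to 36.3), 36.7% (29.98 to 43.9) and 54.3% (49.4 to 59.2) of mature cells held a Slc15a1 UMI in the 3 libraries, beside 0.980%, 0.578% and 3.09% of Paneth-like cells.

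Other measures moved with the libraries. Slc15a1 was at 0.0205, 0.168 and 0.230 in Paneth-like, 0.139, 0.269 and 0.523 in goblet-like and 0.563, 0.478 and 1.19 in T cell-like cells of the 3 libraries. With the Paneth level of each library subtracted, an alternative chosen after seeing the data, the villus log2 ratio was 0.78 for B + A 10 over B + A 0 and 1.11 for B + A 10 over AOS 0. In mature cells the 9 goblet markers, none of them at 0, summed to 24.6, 79.3 and 92.2 UMIs per 10000 and the 8 mature markers to 145, 109.6 and 113. There the 6 T cell markers summed to 0.742, 2.87 and 3.63 and the 8 Paneth markers to 26.3, 56.2 and 37.6, also with none at 0. The median depth of mature cells was 4517, 4631.5 and 2471 UMIs. In cells with 2000 to 6000 UMIs, whose medians in the mature class were still 4226, 4538 and 2471, the same log2 ratios were 0.59 and 0.89. The part of other cells' RNA, and of what depth range remained, was not tested.

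**Figure D3:**
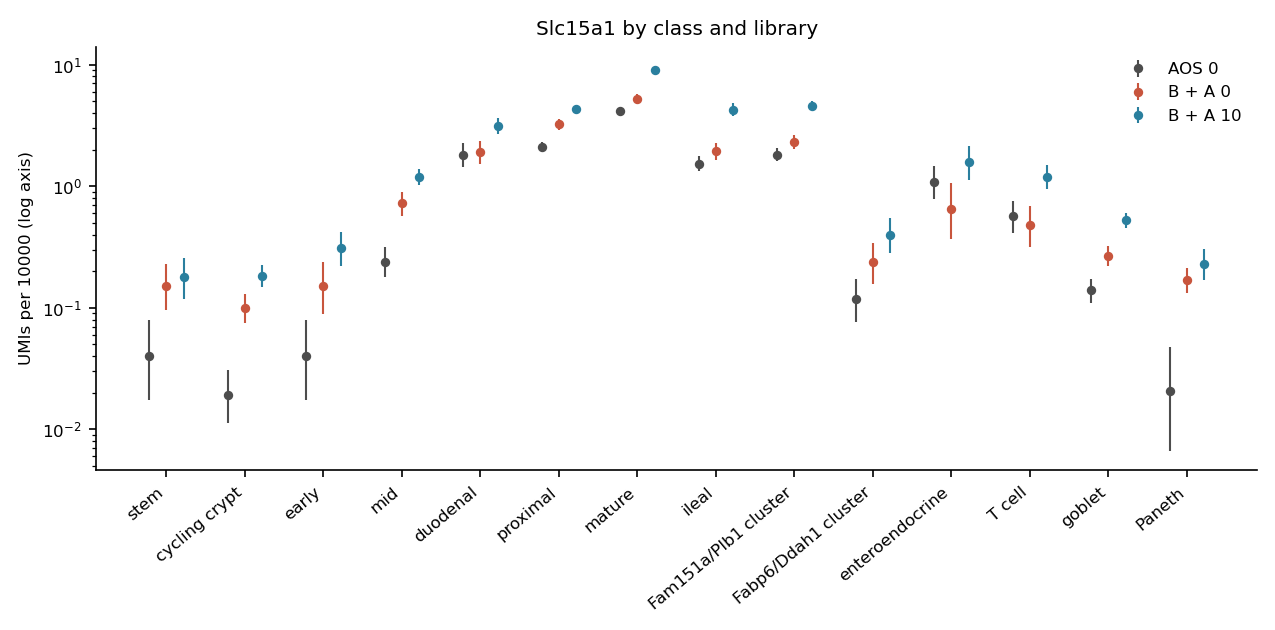
Level of Slc15a1 (vertical log axis, UMIs per 10000 UMIs) in 14 classes or clusters (horizontal axis), with 1 point for each library and bars for the 95% Poisson interval. B + A 10 is the highest point in the 5 villus classes, from 1.19 in mid to 9.12 in mature cells, and the goblet and Paneth levels also differ between libraries.

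The UMIs of Slc15a1 were also set against those of Slc7a9 in the same cells. In mature cells there were 120.2 (106 to 136), 134 (117 to 153) and 246 (219 to 277) UMIs of Slc15a1 per 100 of Slc7a9 in the 3 libraries, and in ileal cells 29.3 (25.0 to 34.2), 36.0 (29.97 to 43.1) and 74.0 (62.9 to 87.0). The duodenal class had 63.4 (47.1 to 84.9), 66.1 (49.4 to 88.1) and 96.5 (77.5 to 120.2), where the intervals of B + A 0 and B + A 10 overlapped. Goblet-like cells had 26.6 (20.5 to 34.2), 59.9 (47.3 to 75.6) and 95.8 (78.7 to 117) and Paneth-like cells 16.7 (5.05 to 43.4), 70.5 (51.6 to 95.8) and 152 (94.3 to 247), so this ratio was highest in B + A 10 in these classes as well.

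Slc6a14 was the other member called. Its villus level was 0.0971, 0.279 and 0.233 in the 3 libraries. The log2 ratio was 1.52 (1.09 to 1.95) for B + A 0 over AOS 0, -0.26 (-0.68 to 0.16) for B + A 10 over B + A 0 and 1.26 (0.79 to 1.74) for B + A 10 over AOS 0. It was the 1 member of 9 called in B + A 0 over AOS 0 (1.95% of all genes higher, 2.76% lower), and with Slc15a1 it made 2 of 9 in B + A 10 over AOS 0 (3.8% higher, 3.12% lower). In ileal cells 22 of 168, 29 of 122 and 30 of 171 cells held a UMI, and the 10 highest cells of each library held 78.5%, 68.4% and 57.7% of its UMIs. Without the 3 highest cells of each library, chosen after seeing the data, the log2 ratio of B + A 0 over AOS 0 was 1.51. In cells with 2000 to 6000 UMIs the gene had too few UMIs to be compared with AOS 0, and after thinning to 1000 UMIs it had too few for all 3 comparisons. Ileal cells held 65 of 67, 114 of 120 and 71 of 74 of its villus UMIs. The cluster led by Fabp6 and Ddah1, outside the villus classes, had 25, 14 and 22 UMIs of Slc6a14, or 0.113, 0.119 and 0.226 per 10000. There the log2 ratio was 0.08 (-0.98 to 1.08) for B + A 0 over AOS 0 and 1.00 (0.11 to 1.89) for B + A 10 over AOS 0, on too few UMIs for a call. The goblet markers of ileal cells summed to 40.1, 103 and 114 UMIs per 10000, and their part was not tested.

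The villus levels of the other 7 members compared stayed within 1.5-fold in all 3 comparisons. Slc7a8 stood at 1.18, 1.32 and 1.70 in the 3 libraries, with 0.52 (0.38 to 0.66) on the log2 scale for B + A 10 over AOS 0, and Slc36a1 at 0.599, 0.672 and 0.797 with 0.41 (0.21 to 0.61). Slc6a19 stood at 3.07, 2.65 and 3.13, with -0.21 (-0.33 to -0.10) for B + A 0 over AOS 0 and 0.24 (0.12 to 0.36) for B + A 10 over B + A 0. Slc7a15 had the same order, lowest in B + A 0, at 0.570, 0.465 and 0.592. Slc7a9 stood at 3.42, 3.74 and 3.74, Slc3a1 at 1.11, 1.04 and 1.15 and Slc1a1 at 0.310, 0.337 and 0.311, and B + A 10 over B + A 0 was 0.00 (-0.10 to 0.10), 0.14 (-0.05 to 0.33) and -0.12 (-0.47 to 0.24) for these genes. In single villus classes 4 of these genes passed 1.5-fold. In mid cells Slc36a1 had a log2 ratio of 0.84 (0.26 to 1.41) for B + A 0 over AOS 0 (2.13% of all genes were higher) and 1.21 (0.71 to 1.73) for B + A 10 over AOS 0 (4.33%). In proximal cells Slc7a15 had -0.61 (-1.25 to -0.01) for B + A 0 over AOS 0 (2.51% were lower) and 0.78 (0.17 to 1.42) for B + A 10 over B + A 0 (higher, as 2.27% of all genes). Slc6a19 had -0.63 (-0.997 to -0.27) for B + A 0 over AOS 0 in the duodenal class (2.86% were lower), and Slc7a8 0.61 (0.35 to 0.87) for B + A 10 over AOS 0 in mature cells (7.75% were higher). After thinning to 1000 UMIs the villus log2 ratio of B + A 10 over B + A 0 was 0.62 for Slc6a19 and 0.76 for Slc7a15, past 1.5-fold, and that of B + A 10 over AOS 0 was 0.80 for Slc7a8. The median log2 ratio of the 9 members was 0.13, 0.24 and 0.13 in B + A 0 over AOS 0, B + A 10 over B + A 0 and B + A 10 over AOS 0, beside -0.06, 0.03 and -0.03 over all genes tested. The comparisons share libraries.

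**Figure D4:**
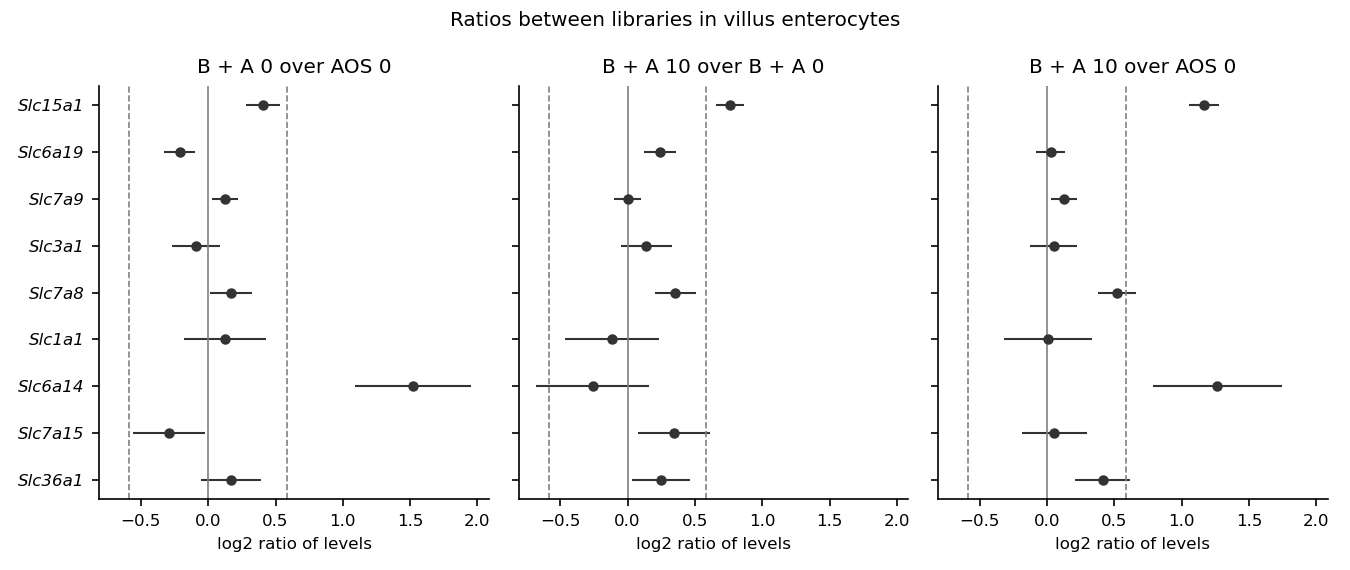
Log2 ratio between libraries (horizontal axis) of the villus level of 9 genes (rows) in 3 comparisons, with bars for the 95% interval from counting and dashed lines at 1.5-fold. Slc6a14 lies past the line in B + A 0 over AOS 0, Slc15a1 in B + A 10 over B + A 0, and both in B + A 10 over AOS 0.

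The genes whose levels ran most like each member over the 18 points were sought among 6417 genes with at least 300 UMIs, by Pearson correlation of log2 levels. They were Prr15, Pmaip1 and Sema6a for Slc15a1 (first 0.989), Ezr, Apol7a and Pepd for Slc6a19 (0.990), Actn4, Srxn1 and Tubal3 for Slc7a9 (0.987) and Plec, Emp1 and Ceacam20 for Slc3a1 (0.985). Slc7a8 ran with Bpnt1, Surf4 and Tm4sf5 (0.981), Slc36a1 with Slc35c2, Slc46a1 and H2-Q1 (0.987), Slc7a15 with Ptpre, Enpp7 and Cyp4b1 (0.960) and Slc1a1 with Duox2, Duoxa2 and Fam83e (0.953). Of these 24 genes 14 were found again with a pseudocount of 1 in place of 0.1 and 6 with the libraries summed, so the names depend on those choices.

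Other amino acid and peptide transporters formed a list of 39 genes, of which 29 were measured and 10 could be compared between mature and stem-like cells. Slc3a2, Slc7a7, Slc16a10 and Slc43a2 were called higher in mature cells (19.5% of all genes were higher), and Slc1a5, Slc7a1, Slc38a1 and Slc38a2 lower (27.8% of all genes were lower). Slc43a2, a carrier of large neutral amino acids, had 0.254, 7.96 and 3.01 in stem-like, mature and ileal cells, and Slc3a2, the heavy chain of basolateral exchangers, 0.526, 2.76 and 1.1995. Slc7a7, a light chain that pairs with Slc3a2, had 0.148, 2.29 and 1.57, and Slc16a10, a carrier of aromatic amino acids, 0.218, 1.84 and 0.390. T cell-like cells had 0.631 of Slc7a7 and 0.404 of Slc16a10. The stem-like level of Slc7a7 and the ileal level of Slc16a10 were thus not separated from background. Slc3a2, Slc16a10 and Slc43a2 were lower in ileal than in mature cells, 3 of 7 tested, beside 5.58% of all genes. The taurine carrier Slc6a6 had 0.538, 1.43 and 1.67 and Slc38a2, a carrier of small neutral amino acids, 0.482, 0.155 and 0.257.

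Of the listed genes of partner proteins, Slc9a3, Slc9a3r1 and Pdzk1 were each called higher in mature than in stem-like cells (19.5% of all genes were higher). Slc9a3, the sodium and proton exchanger of the brush border, had 0.0961, 2.11 and 0.587 in stem-like, mature and ileal cells. It was called lower in ileal than in mature cells (5.58% of all genes were lower), while Slc9a3r1 and Pdzk1 were not called there. The scaffold gene Slc9a3r1 had 1.03, 9.26 and 7.72, and the scaffold gene Pdzk1 0.108, 3.64 and 1.59. Tmem27, also measured, had 4 UMIs in enterocyte clusters.

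Of 14 brush border and cytosolic peptidases, 11 were tested between mature and stem-like cells and all 11 were called higher, beside 19.5% of all genes. Anpep, which frees residues from the amino end of peptides, had 1.03, 28.3 and 23.7 in stem-like, mature and ileal cells, Enpep 0.230, 10.9 and 11.3, and the dipeptidase gene Dpep1 0.182, 5.07 and 7.90. Cndp2, a cytosolic dipeptidase gene, had 0.633, 8.22 and 7.76. Mep1b had 0.242, 6.67 and 6.72, and Ggt1 had 0.392, 6.39 and 4.60. Of the 11, Mep1a alone was called between ileal and mature cells, and it was higher in ileal cells (2.5% of all genes). Against proximal cells, Mep1a, Xpnpep2 and Dpep1 were higher in ileal cells (2.69%).

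Of 10 genes of the amino acid stress response driven by the transcription factor ATF4, 5 were tested between mature and stem-like cells. Ddit3 was higher in mature cells (19.5% of all genes), and Asns, Psat1 and Phgdh, which serve the synthesis of asparagine and serine, were lower (27.8%). Ddit3 had 0.0961, 0.420 and 0.334 and Asns 0.422, 0.0350 and 0.102 in stem-like, mature and ileal cells. Psat1 had 0.256, 0.0117 and 0.0281, Atf5 0.0861, 0.0204 and 0.0492 and Trib3 0.0120, 0.0438 and 0.0317. Atf4 itself had 0.709, 1.04 and 0.999.

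These lists were also compared between libraries over the same villus classes. In B + A 0 over AOS 0 the median villus log2 ratio was 0.00 over 10 other transporters, -0.13 over 12 peptidases and -0.23 over 4 stress genes, and Slc38a6, Tmprss15 and Asns were called lower at -0.59 (-1.23 to 0.05), -1.15 (-1.79 to -0.50) and -0.86 (-1.46 to -0.27) (2.76% of all genes were lower). The interval of Slc38a6 covers 0. In B + A 10 over B + A 0 the medians were 0.08 (8 tested), 0.05 (11) and 0.36 (2), and Ddit3 was called higher at 0.59 (0.25 to 0.92). In B + A 10 over AOS 0 they were 0.07 (10), -0.10 (12) and 0.10 (4), and Asns was called lower at -0.66 (-1.23 to -0.09). None of the transporters or peptidases tested was called higher in the 3 comparisons, beside 1.95%, 2.27% and 3.8% of all genes, and most of the 39 listed transporters were not measured or had too few UMIs to be tested.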

How the data were processed

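The authors aligned reads of 3 libraries with Cell Ranger 2.2.0 to mm10, with a forced cell number (B + A 10 has more deposited cells than the number stated, which was not resolved), filtered cells and genes in Seurat and deposited, for 13891 genes and 12653 cells, the natural log of 1 plus UMIs per 10000 UMIs of the cell. Whole UMIs were recovered from these values (100% of 24333763 values within 0.01 UMI), giving 35258551, 26044381 and 23003083 UMIs for AOS 0, then B + A 0, then B + A 10. Groups follow the treatment labels. Another label of 2 libraries names a different treatment, and the prefixes of the cell names and the titles match the treatment labels.

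Libraries were joined by canonical correlation anchors and clustered in Seurat 5.3.0 (R 4.3.3; 2000 variable genes, 20 dimensions, 20 neighbours, resolution 0.8, giving 22 clusters). The study's RunMultiCCA is not part of this version. A cluster took the class whose markers scored highest, provided that 1 or more of them was among its 10 leading genes and no other class had more there, a rule chosen after the clusters were seen. The other steps used Python 3.11.15, numpy 2.4.6, scipy 1.17.1, pandas 2.3.3 and scanpy 1.11.5. Doublets were kept, since the automatic threshold of Scrublet called 15 cells. The 597 cells with the highest 5% of scores were left out as an alternative.

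Levels have exact Poisson intervals, ratios within a class intervals from the exact binomial, villus ratios intervals from a normal approximation and percentages exact binomial intervals, all at 95%. Precision follows the UMIs of a gene in a class. Calls used 1.5-fold between libraries and 2-fold in each library between classes, among genes with at least 100 UMIs. With 1 library per group no test was made. The calculation of the villus ratio was run on simulated data, and no outcome of that run is used here. Named genes were the 10 members, up to 6 genes of each list by UMIs in enterocytes (others named in the text were picked by the call rules) and the 3 genes most like each member with at least 300 UMIs. The members and lists were chosen with earlier results of these data known, and 1 listed gene is not reported here. Coordinates are from GENCODE annotation of GRCm38, and all 10 members matched a RefSeq promoter.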

Additional observations from a re-analysis of the deposited data

How the results depend on the processing

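No paired analysis was possible because each group has 1 library and the labels give no shared replicate numbers. With the libraries not joined, 2 members in place of 4 were highest in ileal cells and 3 in place of 1 were past 1.5-fold in B + A 10 over B + A 0. There the class that took the mature name held 1.35 UMIs per 10000 of Slc6a14, which is at 0.0117 in the main mature class. Resolution 0.4 gave no mature class, so no values for it. After thinning to 1000 UMIs, where Slc6a14 and Slc1a1 had too few UMIs to be compared, 0 members were past the fold in B + A 0 over AOS 0 and 3 (Slc15a1, Slc6a19 and Slc7a15) in B + A 10 over B + A 0. At 1.2-fold the counts were 3, 3 and 4 in B + A 0 over AOS 0, B + A 10 over B + A 0 and B + A 10 over AOS 0, and at 2-fold B + A 10 over B + A 0 had 0. In cells with 2000 to 6000 UMIs, an alternative chosen after seeing the data, the counts were 0, 2 and 1. There Slc6a14 had too few UMIs to be compared with AOS 0, and its log2 ratio of B + A 10 over B + A 0 was -1.03. With the Paneth level subtracted or the 2 unnamed enterocyte clusters added, also chosen after seeing the data, the counts were 1, 1 and 2 as in the main values. Of the 24 genes most like the members, 14 were shared with a pseudocount of 1 and 6 with the libraries summed. The cause of these shifts was not tested. No called ratio reversed. The log2 ratio of Slc15a1 stayed between 0.18 and 0.47 for B + A 0 over AOS 0, 0.59 and 0.85 for B + A 10 over B + A 0 and 0.89 and 1.204 for B + A 10 over AOS 0. Of 345 recomputed ratios 310 and of 645 levels 422 stayed within the counting interval of the main value. Depth limits Slc6a14 and Slc6a20a most, and no interval covers the spread between mice or libraries.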

Other observations

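Enteroendocrine-like cells (160 cells, median 4504.5 UMIs) held Slc15a1 at 1.10 (0.896 to 1.34) and Slc6a19 at 0.991 (0.796 to 1.22) UMIs per 10000 but Slc7a9 at 0.301 (0.198 to 0.438). The Slc6a19 level is not separated from the T cell-like level of 0.838 (0.716 to 0.974). These cells held 367 (238 to 584) UMIs of Slc15a1 per 100 of Slc7a9, beside 165 (153 to 177) in mature and 75.9 (59.7 to 96.3) in Paneth-like cells. By library the level of Slc15a1 was 1.09, 0.649 and 1.57 in the 3 libraries. After thinning 11.9% of these cells held a Slc15a1 UMI, beside 1.60% of Paneth-like and 6.53% of T cell-like cells.

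An unnamed cluster of 77 cells, led by Wfdc18 and Sst, held Slc15a1 at 2.24 (1.84 to 2.69) and Slc6a19 at 2.38 (1.97 to 2.84), and 72.7% of its cells were among those with the highest doublet scores.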
